A study of Mus musculus with 6 samples.

Results

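Interferon regulatory factors (IRFs) were followed through a knockdown of the long non-coding RNA Gm39822 in mouse endothelial cells. The members were Irf1, Irf2, Irf3, Irf4, Irf5, Irf7, Irf8 and Irf9, taken by symbol from a table of 49315 genes. Of these 8 genes, 7 were among the 18234 genes that reached 5 counts in 2 or more samples and could be tested, and Irf4 was not. The cells were bEND.3, an immortalised endothelial cell line from mouse brain. They were transfected with an antisense LNA GapmeR against Gm39822 or with a negative control antisense LNA GapmeR, both at 100 nM, and no other agent is named for either group. A GapmeR is a short DNA oligonucleotide flanked by locked nucleic acids that directs RNase H to its target RNA. RNA sequencing counts were used for 4 GapmeR and 2 Negative Control samples, and the study describes more control samples than were analysed here. Each arm used 1 oligonucleotide in 1 cell line, so loss of Gm39822 and other effects of the targeting oligonucleotide cannot be told apart. Nothing in the labels states that samples came from separate cultures, so p-values measure the spread between these samples, which may be technical.

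IRFs are transcription factors that bind, through a conserved amino-terminal domain, to DNA elements built from repeats of GAAA. IRF3, IRF5 and IRF7 lie latent in the cytoplasm until kinases downstream of nucleic acid sensors and Toll-like receptors phosphorylate them, and they then drive type I interferon and inflammatory genes. IRF9 is a subunit of ISGF3, the complex that carries the signal from the type I interferon receptor to the nucleus. IRF1 is an inducible activator of antigen presentation and chemokine genes, IRF2 competes with it for the same elements, and IRF4 and IRF8 act mainly in lymphoid and myeloid cells. In endothelium these factors are known for their part in antiviral responses and in the expression of leukocyte adhesion and chemokine genes.

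Before the levels, the upstream sequences of Irf1, Irf2 and Irf8 are shown because they were the members with a match to the elements through which interferon and NF-kB act on IRF genes. RefSeq windows from 250 bases before to 50 bases after each start (build GRCm38.p6) were searched on both strands for the IRF element, written as 2 copies of GAAA with 2 bases between them, the STAT element GAS, TTCNNNGAA, and the kB site. Each sequence below is the 250 bases before the start on the plus strand, 5′ to 3′, with the matches in capitals. They cover chr11:53769764-53770013 for Irf1, chr8:46739495-46739744 for Irf2 and chr8:120736108-120736357 for Irf8.
Irf1: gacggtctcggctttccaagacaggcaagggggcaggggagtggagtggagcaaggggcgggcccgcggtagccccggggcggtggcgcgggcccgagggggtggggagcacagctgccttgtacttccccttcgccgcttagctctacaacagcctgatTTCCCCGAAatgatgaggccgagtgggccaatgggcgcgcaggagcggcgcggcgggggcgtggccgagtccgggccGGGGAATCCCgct
Irf2: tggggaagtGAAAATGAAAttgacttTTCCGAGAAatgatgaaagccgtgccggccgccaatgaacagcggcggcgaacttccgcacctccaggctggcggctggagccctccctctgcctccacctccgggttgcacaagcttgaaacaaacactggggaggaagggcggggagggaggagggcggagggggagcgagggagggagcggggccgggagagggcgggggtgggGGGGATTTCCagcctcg
Irf8: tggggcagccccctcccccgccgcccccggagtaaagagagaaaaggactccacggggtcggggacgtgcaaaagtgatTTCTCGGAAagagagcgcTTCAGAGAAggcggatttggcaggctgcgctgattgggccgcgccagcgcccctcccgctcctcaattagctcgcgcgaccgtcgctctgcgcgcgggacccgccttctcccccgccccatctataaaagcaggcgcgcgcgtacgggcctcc
The Irf1 window held 1 GAS match, TTCCCCGAA, 90 bases upstream and 1 kB match, GGGGAATCCC, 13 bases upstream. The Irf2 window held all 3 elements, with GAAAATGAAA 241 bases, TTCCGAGAA 224 bases and GGGGATTTCC 17 bases upstream. The Irf8 window held 2 GAS matches, TTCTCGGAA and TTCAGAGAA, 171 and 153 bases upstream. No printed match overlapped another. The windows of Irf3, Irf4, Irf5, Irf7 and Irf9, with the second annotated windows of Irf1 and Irf8, held none of these letters. The Irf5 window, chr6:29526375-29526674, lies inside the gene span given below for Irf5, so the bases before that span were not searched. Among all 32851 windows of 300 bases, 3.44% held the IRF element, 8.30% the GAS element and 4.51% the kB site, and a match is a description of the letters, not a site in use.

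Gm39822 itself was counted at 2, 1, 4 and 2 reads in the GapmeR samples against 61 and 56 in the controls, a log2 fold change of -4.82 (SE 0.406, adjusted p = 8.8e-08, edgeR's quasi-likelihood test). Total counts ran from 29261988 to 37117934 per sample, so 3 counts corresponded to 0.0771 to 0.110 CPM, a limit that covers counting error only. Enough counts to be tested were found for 16 of 16 endothelial markers, 12 of 12 macrophage markers and 5 of 12 lymphocyte and dendritic cell markers. Pairs of replicates that include GapmeR 2 differed most in their counts, with a chi-square per degree of freedom of 18.5 to 25.2 beside 5.41 to 10.7 for the other pairs. CPM throughout are counts relative to the library total times edgeR's TMM factor, and these factors were 1.02 to 1.05 for GapmeR and 0.931 and 0.936 for control libraries. In bulk RNA, fewer cells of a type and less RNA per cell cannot be told apart.

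Irf7 was by far the most abundant member. On a per-length scale, CPM per kb of the canonical transcript, its level was 1006 ± 41.5 in the controls (SD, n = 2) and 662 ± 131 in the GapmeR samples (SD, n = 4), and over all 6 samples it ranked 72 of 17965 genes. It made up 82.0% and 82.4% of the summed per-kb level of the 8 members in the controls and 78.0% to 83.0% in the GapmeR samples. Irf9 and Irf1 came next in the controls, at 76.0 ± 2.46 and 72.9 ± 2.06 CPM per kb, and their control values overlapped. In the GapmeR samples they no longer overlapped, with Irf9 at 61.5 ± 2.05 and Irf1 at 40.0 ± 3.82 CPM per kb. Irf3 (24.7 ± 0.794), Irf2 (22.2 ± 0.0132) and Irf5 (18.9 ± 1.18) followed in the controls without overlap, and Irf8 was lowest of the tested members at 3.07 ± 0.0392 CPM per kb. In the GapmeR samples Irf2 (22.8 ± 1.89) and Irf3 (20.8 ± 0.772) overlapped, and Irf5 lay at 6.61 ± 1.41 and Irf8 at 2.5 ± 0.410 CPM per kb. Irf4 was counted at 3, 0, 1 and 1 reads in the GapmeR samples against 0 and 1 in the controls, at or under the limit of 3 counts in every sample, so no fold is given.

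**Figure D1:**
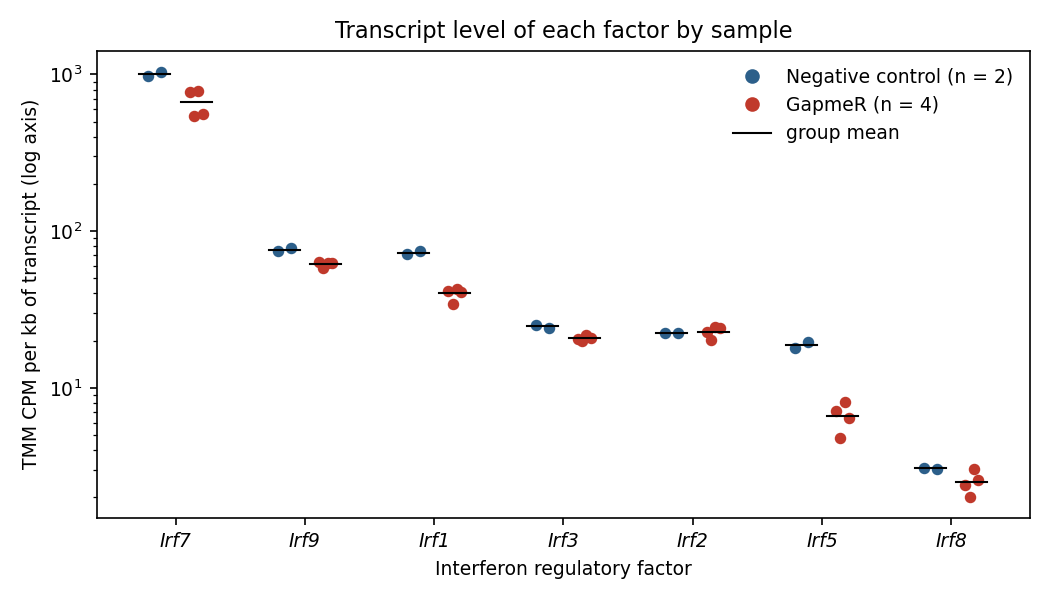
TMM-scaled CPM per kb of canonical transcript (log axis) for the 7 tested factors, ordered by control level, with 1 point per sample for 2 Negative Control and 4 GapmeR samples and a line at the group mean. Irf7 stands above the rest at 1006 in the controls and 662 in the GapmeR samples, and the 2 groups overlap for Irf2 and not for the other 6.

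Transcripts of 5 of the 7 tested members fell in the GapmeR samples, namely Irf1, Irf3, Irf5, Irf7 and Irf9, and none rose. Among all genes tested, 45.3% were called at an adjusted p under 0.05 and 20.0% were called lower. The GapmeR values lay below both controls for 6 of the 7 members, Irf8 being the sixth, where 27.3% of all genes had groups that did not overlap in this direction and 59.2% in either direction. A fall of at least 1.5-fold that also passed the test was found for 3 members, Irf1, Irf5 and Irf7, beside 7.62% of all genes. Library size alone, without TMM factors, moved the median log2 fold change of all genes from 0.03 to 0.17, a shift of 0.148, and left 3 members called, Irf1, Irf5 and Irf7. Scaled that way, 8241 of 18234 genes were called, 2135 of them lower. Without Negative Control 1, the log2 fold changes of Irf1, Irf3, Irf5, Irf7 and Irf9 were -0.88, -0.20, -1.56, -0.63 and -0.32. Without Negative Control 2, they were -0.82, -0.26, -1.43, -0.54 and -0.25. Not all of the 5 calls held with only 1 control, as given below, and fewer of all genes were called then too.

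**Figure D2:**
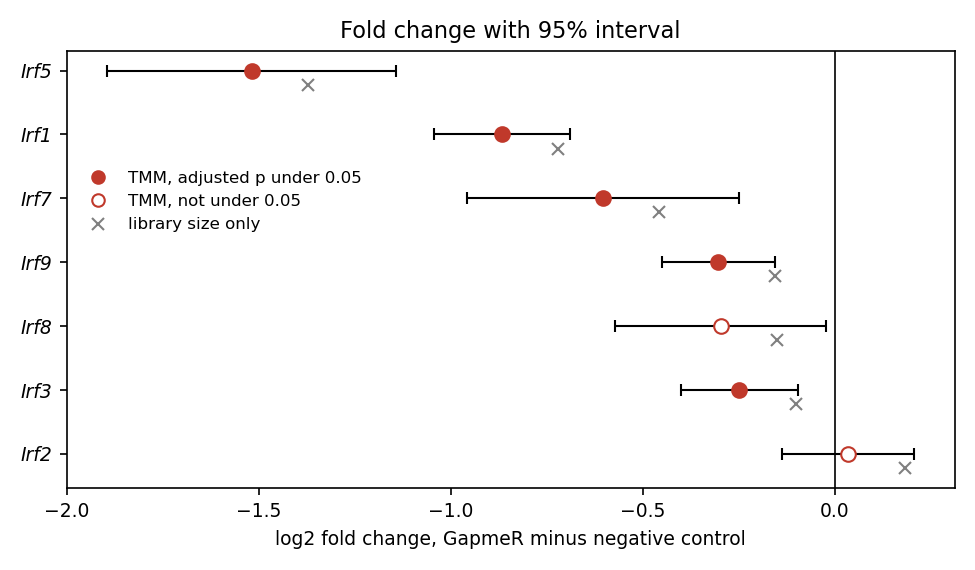
Log2 fold change, GapmeR minus negative control, for the 7 tested factors with the 95% interval of edgeR's quasi-likelihood fit. Filled points passed an adjusted p of 0.05, open points did not, and crosses give the value scaled by library size only. Irf5 (-1.52) and Irf1 (-0.87) lie farthest from 0, and Irf2 (0.03) lies beside it.

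IRF1, the activator, and IRF2, its competitor, took different courses. Irf1 (ENSMUSG00000018899, chr11:53770014-53778374, plus strand, mm10) was counted at 3018, 2860, 2846 and 2818 reads in the GapmeR samples, or 89.1, 73.5, 91.8 and 87.2 CPM. The controls held 4181 and 5070 reads, or 153 and 159 CPM. Every GapmeR sample lay between 47.2% and 58.9% of the control mean, well clear of both controls. The log2 fold change was -0.87 (SE 0.0832, 95% interval -1.04 to -0.69, adjusted p = 4.1e-07, edgeR), and the gene was called under each of 13 alternative settings. Irf2 (ENSMUSG00000031627, chr8:46739745-46847458, plus strand) was at 56.8, 50.7, 60.9 and 60.5 CPM in the GapmeR samples against 55.9 and 55.9 CPM in the controls. The GapmeR values fell on both sides of the controls, and the log2 fold change was 0.03 with a 95% interval of -0.14 to 0.21 (adjusted p = 0.765, edgeR).

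The ratio of Irf1 to Irf2 within a sample does not depend on library scaling. It was 1.57, 1.45, 1.51 and 1.44 in the GapmeR samples against 2.73 and 2.84 in the controls. The 2 groups were thus well apart, and each group's values were close together. On the log2 scale the ratio was 0.58 ± 0.0558 (SD, n = 4) and 1.48 ± 0.0400 (SD, n = 2), a difference of -0.90, with a 2-sided exact permutation p of 0.0667, the smallest that the 15 splits of 6 samples allow. In the 250 bases shown above, both genes held a GAS match and a kB match, and the IRF element was found in the Irf2 window alone of the pair.

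Among the latent factors, Irf5 fell the most and Irf3 the least. Irf5 (ENSMUSG00000029771, chr6:29526130-29541869, plus strand) links Toll-like receptors to inflammatory cytokine genes. It was counted at 531, 407, 551 and 452 reads in the GapmeR samples, or 15.7, 10.5, 17.8 and 14.0 CPM, against 1082 and 1377 reads, or 39.5 and 43.1 CPM, in the controls. The highest GapmeR value was under the lowest control value by a wide margin, although the GapmeR samples had the largest spread of any tested member, a coefficient of variation of 21.4%. The log2 fold change was -1.52 (SE 0.166, 95% interval -1.90 to -1.14, adjusted p = 7.2e-05, edgeR), which left 35% of the control mean, and the call held in 13 of 13 alternative settings.

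Irf7 (ENSMUSG00000025498, chr7:141263183-141266499, minus strand), the interferon-induced amplifier of type I interferon production, was at 1848, 1291, 1868 and 1337 CPM in the GapmeR samples against 2342 and 2483 CPM in the controls. GapmeR samples 1 and 3 sat at 76.6% and 77.4% of the control mean, and samples 2 and 4 at 53.5% and 55.4%, so the factor was lower in each but by different amounts. The log2 fold change was -0.61 (SE 0.156, 95% interval -0.96 to -0.25, adjusted p = 0.0116, edgeR). The call was lost without either control, at an adjusted p of 0.0504 without Negative Control 1 and 0.0913 without Negative Control 2 (edgeR).

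Irf3 (ENSMUSG00000003184, chr7:44997648-45002848, plus strand) encodes the constitutive factor that acts first after nucleic acid sensing. It was at 42.6, 41.2, 45.0 and 43.1 CPM in the GapmeR samples against 52.2 and 49.9 CPM in the controls, close together within each group and without overlap. The log2 fold change was small, -0.25 (SE 0.0719, 95% interval -0.40 to -0.10, adjusted p = 0.0100, edgeR). Scaled by library size alone it was -0.10 (adjusted p = 0.264, edgeR). Its distance from the median of all genes was -0.27 under both scalings. Rescaling shifts all genes nearly alike, so this distance could hardly change and does not bear on the call. The call was also lost without Negative Control 1 (adjusted p = 0.144) or Negative Control 2 (adjusted p = 0.0646, edgeR). The ratio of Irf7 to Irf3 was 43.4, 31.4, 41.5 and 31.0 in the GapmeR samples against 44.8 and 49.7 in the controls. All GapmeR ratios were below the controls, but GapmeR 1 came close to Negative Control 1. The log2 difference of -0.38 had a 2-sided exact permutation p of 0.133.

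**Figure D3:**
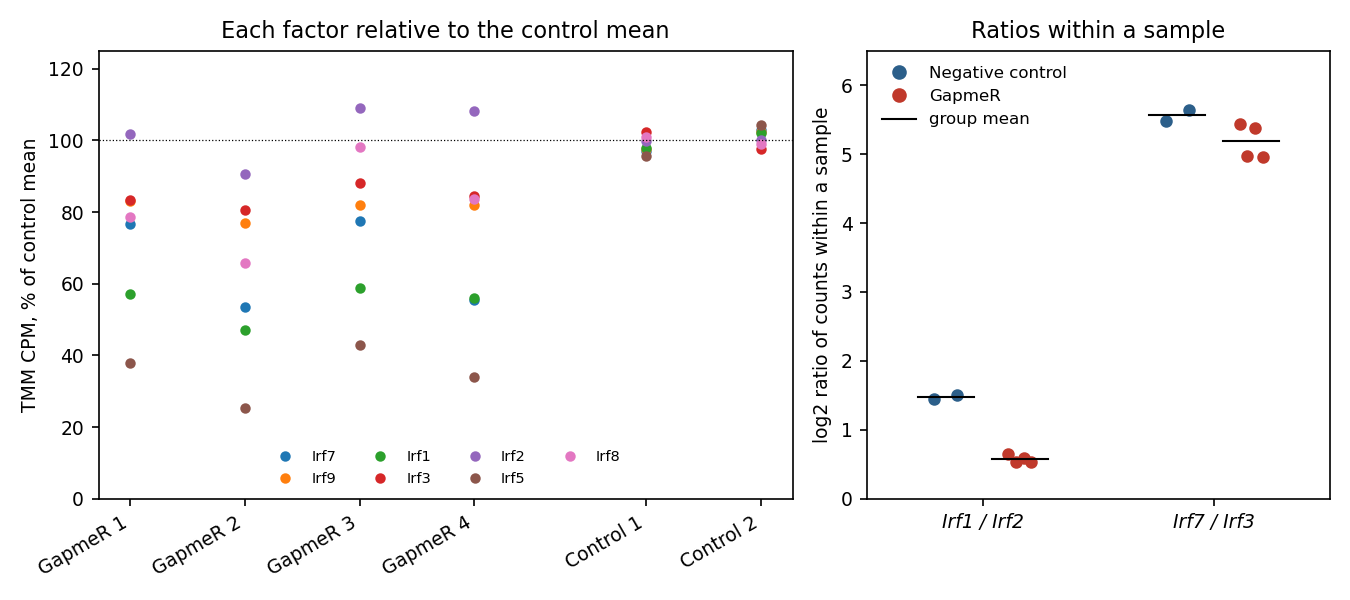
Left, TMM CPM of each tested factor in each sample as a percentage of the mean of the 2 controls, with a dotted line at 100. Right, log2 ratio of counts within a sample for Irf1 to Irf2 and Irf7 to Irf3, with a line at the group mean. The Irf5 points lie between 25.3% and 43.0% in the GapmeR samples, GapmeR 2 is the lowest GapmeR sample for all 7 factors, and the Irf1 to Irf2 ratios of the groups are well apart.

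Irf9 (ENSMUSG00000002325, chr14:55603985-55610030, plus strand), the DNA-binding subunit of ISGF3, was at 176, 163, 173 and 173 CPM in the GapmeR samples against 207 and 216 CPM in the controls. It had the tightest GapmeR values of the 7, a coefficient of variation of 3.33%, and no overlap with the controls. The log2 fold change was -0.30 (SE 0.0694, 95% interval -0.45 to -0.16, adjusted p = 0.00202, edgeR). It was -0.16 by library size alone (adjusted p = 0.0657, edgeR). The distance from the median of all genes was -0.33 under both scalings, which by the same reasoning does not bear on the call. Without Negative Control 2 the log2 fold change was -0.25, and the call was lost.

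Irf8 (ENSMUSG00000041515, chr8:120736358-120756694, plus strand), a factor of myeloid and dendritic cells, was at 12.2, 10.2, 15.3 and 13.0 CPM in the GapmeR samples against 15.7 and 15.4 CPM in the controls. GapmeR 3 was at 98.2% of the control mean, so the groups were barely apart, and the log2 fold change of -0.30 (SE 0.129, 95% interval -0.57 to -0.02) did not pass the test (adjusted p = 0.0727, edgeR). It passed in 3 of 13 alternative settings, one of which left out GapmeR 3 (adjusted p = 0.0119, edgeR). Irf4 (ENSMUSG00000021356, chr13:30749233-30766981, plus strand), the other factor of lymphoid and myeloid cells, was at the limit of counting, as given above.

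Among the GapmeR samples the members shared the sample at the low end. GapmeR 2 was the lowest GapmeR sample for 7 of the 7 tested members, with TMM scaling and with library size alone, whereas over all genes it was the lowest in 29.3%. GapmeR 3 was the highest for 6 of them, Irf9 being highest in GapmeR 1. Without GapmeR 2, the same 5 members were called.

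Some members share exons with a neighbour in the GENCODE annotation (GRCm39), and the strand setting of the counting is not given in the sources used here, so reads of such pairs cannot be told apart. Irf1 shares 1467 exon bases with the antisense gene Gm17334, which had 3 to 14 reads in a sample and did not pass the test (log2 fold change -0.05, SE 0.635), and 405 with Gm74496, which was not analysed here. It also shares 619 exon bases with the antisense lncRNA Gm12216, which was counted at 66, 67, 49 and 49 reads in the GapmeR samples against 134 and 178 in the controls, few beside the reads on Irf1. Gm12216 fell by 1.63 on the log2 scale (SE 0.176, adjusted p = 1.6e-06, edgeR). Irf3 shares 123 exon bases with the antisense gene Bcl2l12, which encodes a Bcl-2 family protein and had a log2 fold change of -0.65 (SE 0.146, adjusted p = 0.00179, edgeR), and 22 with Scaf1, at -0.01. Irf5 shares 416 bases with the antisense gene Tnpo3, a nuclear import receptor that moved the other way, with a log2 fold change of 0.23 (SE 0.0737, adjusted p = 0.0193, edgeR). Irf7 shares 63 bases with antisense Phrf1 (log2 fold change 0.10) and Irf9 282 with Rnf31 on the same strand (-0.10), and neither neighbour passed the test. Irf2 shares 112 bases with antisense Gm16675, which did not pass the test either (log2 fold change -0.21, SE 0.180).

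For each called member, the genes with the most similar profile over the 6 samples were found among 12760 genes of at least 1 CPM, by the root mean square difference of centred log2 values. For Irf7 they were Isg20 and Oas3, interferon-induced antiviral genes, at differences of 0.0649 and 0.0689. For Irf1 they were Srebf1, a regulator of lipid synthesis (0.0348), and Trp53inp2 (0.0361). Adprh (0.0148) and Mrpl19 (0.0211) were nearest to Irf3, and Atp2a2, the sarco/endoplasmic reticulum calcium pump (0.0184), and Jcad, an endothelial junction protein (0.0189), to Irf9. The profile of Irf5 was matched least closely, with Lims2 at 0.0886 and the protocadherin Pcdh17 at 0.0931. With 6 samples in 2 groups, the points share libraries and the difference between the groups, so the distances are a description.

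Lists of genes around the IRFs were read next. They were chosen with earlier results of these data known, so their shares beside all genes are a description. The proteins that work with IRFs changed in both directions. Of 14 partners and cofactors tested, 6 fell and 3 rose, a share called of 64.3%. Of all genes, 45.3% were called, 20.0% lower and 25.4% higher. The median log2 fold change was -0.20 beside 0.03 for all genes. Batf2, a partner of IRF1, averaged 66.5 ± 6.28 CPM in the controls and 18.6 ± 3.35 CPM with the GapmeR (SD, n = 2 and 4), and fell by 1.84 on the log2 scale (SE 0.137, adjusted p = 2.1e-06, edgeR). Stat2, a partner of IRF9 in ISGF3, also fell (-0.22, adjusted p = 0.0300, edgeR). Nmi, which binds IRF7 and STAT proteins, had a log2 fold change of -0.66, and Irf2bpl, of the IRF2-binding protein family, one of -0.57, both called. Batf3 rose (0.52, adjusted p = 0.0262, edgeR). Batf and Spib, the other two that rose, had no counts in either control and at most 51 and 17 in a GapmeR sample, at least 11.2-fold and 3.13-fold higher on average than a limit of 3 counts per control library. With these bounds in place of the fitted values the median of the list was again -0.20.

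Sensors and adaptors that switch on IRF3, IRF5 and IRF7 were mostly lower. Of 23 tested genes of this activation pathway, 13 fell, 3 rose and 7 did not pass, a share called of 69.6% beside 45.3% of all genes, with a median log2 fold change of -0.24. Tlr3, the endosomal receptor for double-stranded RNA, fell from 94.1 ± 7.01 to 54.0 ± 8.32 CPM (log2 fold change -0.80, SE 0.115), and its adaptor Ticam1 fell from 26.8 ± 0.523 to 17.1 ± 1.51 CPM (-0.65, SE 0.0923). Sting1, the adaptor for cytosolic DNA sensing, listed as Tmem173, had a log2 fold change of -0.73 (SE 0.122). The kinases went separate ways. Ikbke, an inducible kinase of IRF3 and IRF7, rose from 3.63 ± 0.129 to 8.14 ± 0.749 CPM (log2 fold change 1.16, SE 0.143, adjusted p = 6.6e-06, edgeR), while Tbk1, its close relative, had a log2 fold change of 0.00 with a 95% interval of -0.19 to 0.19. The DNA sensor Cgas, listed as Mb21d1, and the ubiquitin ligase Traf3 were the others that rose.

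The interferons, receptors and signalling proteins that induce IRF genes had 12 of 14 members tested, and 5 fell and 2 rose (median log2 fold change -0.18). The share called was 58.3%, beside 45.3% of all genes. With library size only, 4 of the 12 were called, 2 lower and 2 higher, beside 8241 of 18234 genes. Without Negative Control 2 fewer were called too, in this list and among all genes. Ifnb1, the gene of interferon beta, was among the 2 that rose. It was at 7.64, 9.25, 6.45 and 8.17 CPM in the GapmeR samples against 2.70 and 3.57 CPM in the controls, a log2 fold change of 1.32 (SE 0.175, adjusted p = 1.4e-05, edgeR), and it was higher in 4 of 4 GapmeR samples in which Irf7 and Irf9 were lower. The interferon gamma receptor chain Ifngr2 fell (-0.50, SE 0.0674), as did the feedback inhibitors Socs3 (-0.91, SE 0.0829) and Usp18 (-0.34, SE 0.0836).

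Most tested genes in the lists of known targets of IRF1, or of ISGF3 and IRF3, fell. These lists too were chosen with earlier results known, so their shares beside all genes are a description and not independent evidence. Of 25 tested IRF1 targets, 20 fell, 1 rose and 4 did not pass, a share called of 84%, beside 45.3% of all genes, and the median log2 fold change was -0.69. Among them were the chemokine Cxcl11, from 27.7 ± 2.86 to 2.58 ± 0.903 CPM (log2 fold change -3.43, SE 0.214), the IL-18 antagonist Il18bp (-2.02, SE 0.0987), the checkpoint ligand Cd274 (-1.80, SE 0.0850) and the cytokine Il15 (-1.77, SE 0.116). The 1 target that rose was Nos2 (1.12, adjusted p = 0.000753, edgeR), named here after its values were seen. Summed over the list, the IRF1 targets had 6319 to 7430 CPM in the GapmeR samples against 11004 and 11517 in the controls.

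Of 30 targets of ISGF3 and IRF3, 23 fell, 3 rose and 4 did not pass (86.7% called, beside 45.3% of all genes, median log2 fold change -0.47). The nucleic acid sensor Zbp1 fell from 262 ± 21.3 to 84.8 ± 15.2 CPM (log2 fold change -1.63, SE 0.143), and the antiviral gene Rsad2 from 2443 ± 353 to 1248 ± 179 CPM (-0.97, SE 0.121). The 2 Mx GTPases moved in opposite directions, with Mx1 at -1.07 (SE 0.118) and Mx2 at 1.25 (SE 0.0845). The summed level was 13818 to 16384 CPM in the GapmeR samples against 19605 and 21698 CPM in the controls. Scaled by library size only, the counts that fell and rose were 4 and 3 for the partners, 9 and 5 for the activation pathway, 2 and 2 for the interferons and receptors, 20 and 1 for the IRF1 targets, and 19 and 5 for the targets of ISGF3 and IRF3. With that scaling, 2135 of all 18234 genes fell and 6106 rose.

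**Figure D4:**
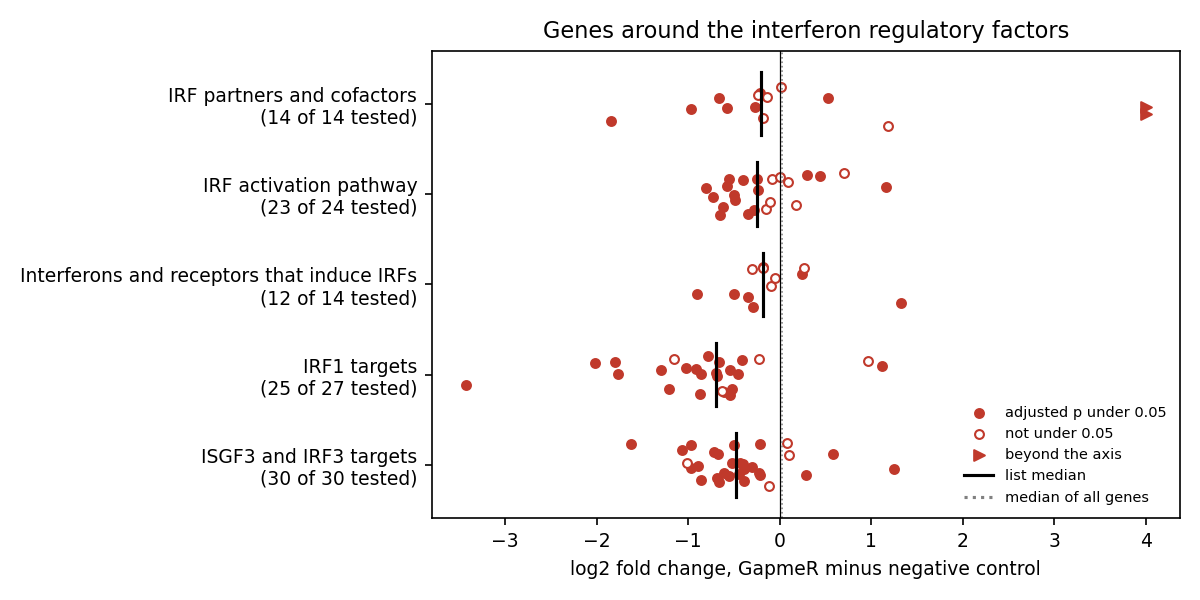
Log2 fold change, GapmeR minus negative control, of each tested gene in 5 lists around the IRFs, with filled points at an adjusted p under 0.05 (edgeR), open points above it, a bar at the list median and a dotted line at the median of all genes (0.03). Arrowheads mark Batf and Spib, which had no control counts. The medians are -0.69 for the IRF1 targets and -0.47 for the targets of ISGF3 and IRF3, and between -0.24 and -0.18 for the other 3 lists.

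Because Irf5 and Irf8 are also leukocyte genes, markers of other cell types were read beside them. The summed level of 12 macrophage markers was 207 to 385 CPM in the GapmeR samples against 170 and 175 in the controls, with a median log2 fold change of 1.08, and 3 of the 12, Cd68, Mrc1 and Fcgr1, rose, a share of 25% beside 25.4% of all genes called higher. The sums were 226, 207, 352 and 385 CPM in GapmeR samples 1 to 4. Cd68 and Lyz2, which averaged 119 and 131 CPM in the GapmeR samples, made up most of these sums, and Lyz2 did not pass the test. Irf5 and Irf8 were highest in GapmeR 3, as were most tested members. All GapmeR values of Irf5 and Irf8 were below the controls, and the macrophage sums were above them. Of 12 lymphocyte and dendritic cell markers, 5 were tested and 3 were at 0 in all samples. Cd79a, Cd79b and Itgax rose, a share of 60% of those tested beside 25.4% of all genes called higher. Flt3 (-0.49) and Xcr1 (-0.61) had negative log2 fold changes and did not pass the test. Counts were low, with 7 and 12 control reads for Cd79a against 19 to 28, and 1 and 2 for Cd79b against 5 to 15. The summed level of the markers was 4.37 to 7.22 CPM in the GapmeR samples against 3.29 and 3.70 in the controls. The lymphocyte and dendritic calls did not hold with only 1 control. Without GapmeR 2 the macrophage calls numbered 5, beside 8719 of 17814 genes. Of 16 endothelial markers, 8 fell and 3 rose, a share called of 68.8% beside 45.3% of all genes, and with library size only 6 fell and 6 rose. They had a summed level of 9596 to 10992 CPM in the GapmeR samples against 11968 and 11479 in the controls. The part of either set of markers in the values of the IRF genes was not tested.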

How the data were processed

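RNA of bEND.3 cells was ribodepleted and sequenced as paired reads by the authors. They processed the reads with bcbio-nextgen and aligned them with STAR to mm10, and the submitters' processing notes name Trimmomatic 0.36, STAR 2.5.2b and Subread 1.5.2. The values deposited are raw read counts per Ensembl gene, and the strand setting of the counting is not given in the sources used here. The table has 1 further column of per-sample counts that matches no label and was not used.

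Counts of 4 GapmeR and 2 Negative Control samples were fitted over the 18234 genes that reached 5 counts in 2 or more samples, using edgeR 4.0.16 in R 4.3.3 (TMM, robust quasi-likelihood test, Benjamini-Hochberg adjustment over all genes, called at an adjusted p under 0.05). Where a sentence names a rise or fall without a p-value, it refers to this call. Mean CPM are given with the SD between samples. Total counts were 29261988 to 37117934 per sample, the biological coefficient of variation was 8.42%, and every pair of replicates differed by more than sampling noise. Levels between genes were divided by the length of the Ensembl canonical transcript. Ratios used counts plus 0.5 and an exact permutation test over samples. Promoter windows are RefSeq's (GRCm38.p6), and overlaps are from GENCODE (GRCm39).

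The members and lists were chosen with earlier results of these data known. Named genes are the members, Gm39822, overlapping genes, the 2 nearest profiles to each called member (log2 of CPM plus 0.1) and up to 4 called genes per list with the largest change and a mean of at least 1 CPM, and 1 gene that meets this rule is not reported here. Further genes named in the lists (Stat2, Batf, Spib, Batf3, Tbk1, Cgas, Traf3, Nos2, Fcgr1, Lyz2, Cd79a, Cd79b, Flt3 and Xcr1) were named after their values were seen. On simulated counts of 17724 genes in this layout of samples, edgeR recovered 100 of 100 genes changed by 1 and 93 of 100 changed by 0.6 on the log2 scale, with 9 false calls. The changed genes were few, averaged at least 100 counts and were balanced up and down, and all genes shared 1 dispersion. In the data 45.3% of genes were called and spread differed between genes, so these figures do not measure recovery or false calls here. Alternatives were DESeq2 1.42.0 size factors and Wald test, library size only, limma-voom (3.58.1), 2 other filters, a 1.5-fold threshold, a replicate block and each sample left out. The replicate block was fitted to replicates 1 and 2 of each group only.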

Additional observations from a re-analysis of the deposited data

Results flagged for a closer look

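The summed level of the 16 endothelial markers, 10854, 9596, 10992 and 10954 CPM in GapmeR samples 1 to 4, had 1 value far from the rest, GapmeR 2 at 9596 CPM. Its gap to the nearest sample was 0.901 of the range of the 4 samples, over Dixon's 95% critical value for 4 values. Of 17 items examined in this way, this was the 1 past that value, and chance alone passes it in about 1 of 20. GapmeR 2 was also the lowest GapmeR sample for 7 of the 7 tested IRF genes, none of which passed it.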

How the results depend on the processing

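Irf1 and Irf5 were called in 13 of 13 alternative settings, and Irf1, Irf3, Irf5, Irf7, Irf8 and Irf9 kept a negative log2 fold change in each. The number of members called, 5 by default, was 3 with library size only, beside 8241 of 18234 genes, and 3 with a 1.5-fold threshold, beside 25.4% of all genes. It was 5 or 6 with a GapmeR sample left out, beside 7476 of 17907 to 8719 of 17814 genes. With a control left out fewer members were called, and fewer of all genes. Leaving out a control leaves 1 control sample, which is assumed to vary like the GapmeR samples. For the interferons and receptors, the calls went from 7 to 4 with library size only. With a GapmeR sample left out, calls ranged from 14 to 17 for the activation pathway and 9 to 10 for the partners. They ranged from 6 to 7 for the interferons and receptors, 21 to 22 for the IRF1 targets and 23 to 27 for the targets of ISGF3 and IRF3. With a control left out, calls were level or fewer in each of these lists, and fewer among all genes. Macrophage marker calls, 3 by default, were 5 with DESeq2, beside 7485 of 18234 genes, and 5 without GapmeR 2, beside 8719 of 17814. Without the filter they were 6 of 13 entries tested for the 12 markers, beside 8617 of 28182 genes. The 3 lymphocyte and dendritic calls were 1 at a minimum of 10 counts in every sample, beside 6186 of 13353 genes. They did not hold with only 1 control. With a sample left out, the log2 fold change of Gm39822 ranged from -5.25 to -4.52, it was -5.44 with the replicate block, and it did not pass the filter without either control or at a minimum of 10 counts. With a sample left out, the log2 difference in the Irf1 to Irf2 ratio ranged from -0.93 to -0.87 and that of Irf7 to Irf3 from -0.46 to -0.30.

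Titles share replicate numbers 1 and 2, but deviations of same-numbered samples correlated at -0.110 and 0.172 over 8870 genes, so the numbers were not taken as pairs. The replicate block was fitted to GapmeR 1 and 2 and Negative Control 1 and 2 alone, so it also left out GapmeR 3 and 4. With it, 6 members were called, beside 7798 of 18234 genes, Irf8 being added (adjusted p = 0.00164, edgeR). The log2 fold change of Irf2 changed sign to -0.038 (adjusted p = 0.783, edgeR). Without the filter on low counts Irf8 was also called (adjusted p = 0.0245, edgeR). The cause was not tested for these changes. Depth limits Irf4, whose counts were at or under 3 in every sample.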
